A study of Homo sapiens with 8 samples.

Results

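The clustered protocadherins are adhesion molecules of the cadherin superfamily, encoded side by side on human chromosome 5 in 3 clusters named alpha, beta and gamma. Members were taken by name: every array row annotated to a single gene symbol that begins with PCDHA, PCDHB or PCDHG, followed by a digit or by A, B or C and a digit. The rule gave 56 of 19426 annotated genes, with 14 in the alpha, 19 in the beta and 23 in the gamma cluster. The 4 pseudogenes PCDHB17P, PCDHB18P, PCDHB19P and PCDHGB8P are among them. Of the 56 members 53 were measured (13 alpha, 17 beta and 23 gamma). PCDHAC2, PCDHB1 and PCDHB6 had only dim rows, those whose mean over the arrays was at or below the median of all rows, and received no value. PCDHA13 had no row of its own symbol alone and is not a member here. The measured members rested on 215 rows, and 12 of them on a single row. The genes of a cluster resemble one another in sequence, so that signal can be shared between members, and each single value is uncertain to that extent.

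The data are expression values from Affymetrix exon arrays of NTera2/D1, an established human embryonal carcinoma line. RNF20 was knocked down with a small interfering RNA (siRNF20), one against the bacterial gene LacZ served as the control (siLacZ), and the cells were exposed to the solvent DMSO or to 10 µM retinoic acid (RA) for 72 h. The 4 groups are DMSO siLacZ, RA siLacZ, DMSO siRNF20 and RA siRNF20, each with 2 arrays that carry the numbers GF117 and GF120 and that the labels call biological duplicates. All groups share 1 cell line, and siRNF20 is a knockdown that leaves part of the transcript.

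Each alpha and gamma gene contributes a variable exon with a promoter of its own, which is spliced to constant exons shared by the whole cluster, whereas each beta gene is a single exon with no shared part. Single neurons switch on a few of these promoters, and the resulting set of isoforms at the cell surface lets neurites of one cell recognise and avoid each other. Promoter choice is known to depend on DNA methylation and on CTCF and cohesin, which bind a conserved element in most of these promoters. The C-type members (PCDHAC1, PCDHAC2, PCDHGC3, PCDHGC4 and PCDHGC5) lie at the ends of the alpha and gamma clusters and are expressed by most neurons without such a choice. RNF20 is the E3 ligase that attaches ubiquitin to histone H2B, and RA drives embryonal carcinoma cells out of their stem-cell-like state.

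The promoters of the members differ by cluster, which is why windows from each are shown before the values. RefSeq promoters (GRCh38.p14) of 300 bases, from 250 before to 50 after the start of transcription, were found for 47 of the 56 members (13 alpha, 14 beta and 20 gamma). The word of 10 letters shared by the largest number of beta promoters on the gene's strand was GGTGGCGCTG, in 12 of 14 genes, with PCDHB1 and PCDHB14 as the exceptions. It occurred in 0.179% of all 35116 promoters on the gene's strand and in 0.276% on either strand. The most widely shared word of 12 letters among alpha promoters was CATGATGTCGCT, in 8 of 13 genes and in 0.0228% of all promoters on the gene's strand and on either strand. The most widely shared word of 10 letters among gamma promoters was GCGCCGCTGT, in 9 of 20 genes, in 0.0797% of all promoters on the gene's strand and in 0.131% on either. None of the 3 words occurred in a promoter of another cluster, and all 3 contain the letters CGCT, which by themselves occurred in 54.3% of all promoters on the gene's strand and in 70% on either strand. A match describes letters in the window and is not a binding site. The windows hold 56 bases around the word for members with large differences or that passed a test. All lie on the + strand of chromosome 5, with the word in capitals. PCDHGB7 lacks the gamma word, and its capitals mark the first CGCT of its promoter. They are not the counterpart of the word. The same stretch (gcaagcgctga) stands in small letters after the word in PCDHGB6.
PCDHA5 (chr5:140821532-140821587): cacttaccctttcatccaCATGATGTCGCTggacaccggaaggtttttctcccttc
PCDHA8 (chr5:140841120-140841175): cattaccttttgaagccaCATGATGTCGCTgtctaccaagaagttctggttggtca
PCDHB3 (chr5:141100383-141100438): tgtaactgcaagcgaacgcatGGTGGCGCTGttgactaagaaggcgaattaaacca
PCDHB5 (chr5:141135169-141135224): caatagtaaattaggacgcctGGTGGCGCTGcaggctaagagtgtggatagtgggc
PCDHB16 (chr5:141182300-141182355): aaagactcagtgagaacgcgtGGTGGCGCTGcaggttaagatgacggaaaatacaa
PCDHB13 (chr5:141213855-141213910): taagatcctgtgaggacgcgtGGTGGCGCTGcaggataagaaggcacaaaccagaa
PCDHGB6 (chr5:141407914-141407969): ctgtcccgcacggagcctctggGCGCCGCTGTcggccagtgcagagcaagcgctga
PCDHGA10 (chr5:141412921-141412976): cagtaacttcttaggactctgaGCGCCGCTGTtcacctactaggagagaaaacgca
PCDHGB7 (chr5:141417597-141417652): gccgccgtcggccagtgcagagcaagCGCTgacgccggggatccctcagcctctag
Over all promoters that hold the word of their cluster, printed or not, the position of its letters CGCT was counted from the start. Negative positions lie before the start. The position ran from -81 to -38 in the 8 alpha genes and from -79 to 3 in the 12 beta genes. In the gamma promoters it ran from -220 to -40.

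The GF117 RA siLacZ array stood apart from the others. Over all genes it correlated with them at Pearson r = 0.135 to 0.239, against 0.908 to 0.975 among the other 7, and over the members at 0.436 to 0.660, against 0.818 to 0.950. Its median intensity was 18.4, against 17.2 on the other 7, and it read RNF20 at log2 6.08. The values below therefore come from the 7 other arrays, in which the RA siLacZ group is the GF120 array alone and is assumed to vary like the others; with all 8 arrays 0% of genes passed in each of the 5 comparisons, members included. RNF20 read 8.24 and 8.09 on the DMSO siLacZ arrays and 8.10 on the GF120 RA siLacZ array, against 6.48 and 5.98 with DMSO siRNF20 and 6.27 and 5.89 with RA siRNF20. It was lower on each of the 4 siRNF20 arrays than on those 3 siLacZ arrays, by -1.94 on the log2 scale in DMSO (SE 0.23, limma adjusted p = 0.237) and by -2.02 in RA (SE 0.29, adjusted p = 0.110). The markers of embryonal carcinoma cells had a median log2 intensity of 9.42 to 9.63 on the 4 DMSO arrays and of 7.99 to 8.44 on the 3 RA arrays, and all 9 of them were measured.

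**Figure D1:**
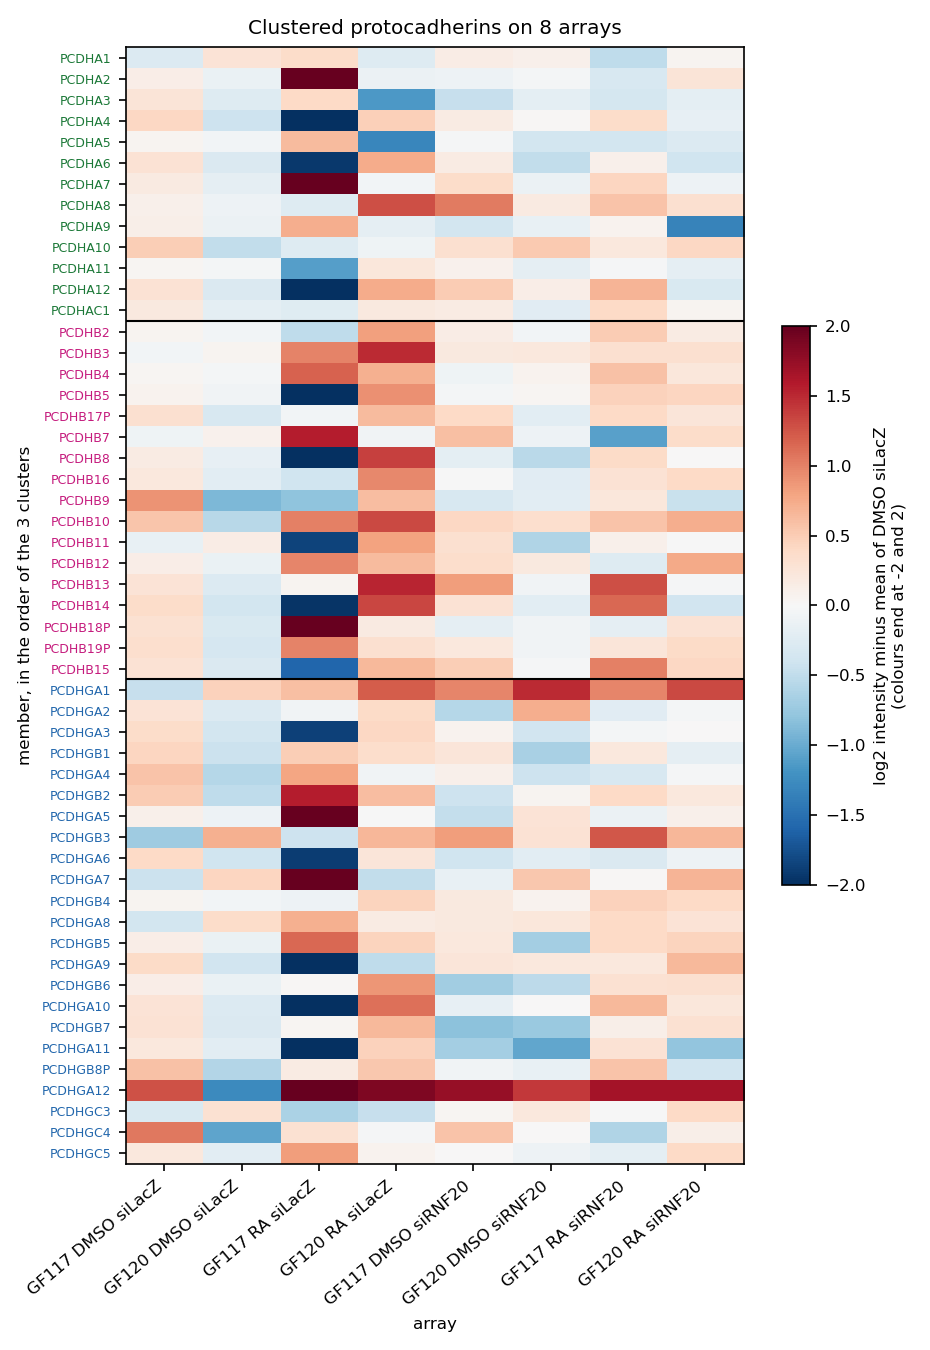
The 53 measured members (one per line, in the order of the alpha, beta and gamma clusters) on the 8 arrays (columns), coloured by log2 intensity minus the mean of the DMSO siLacZ arrays, from -2 (blue) to 2 (red). The beta members stand mostly in red on the GF120 RA siLacZ array, and the GF117 RA siLacZ array has its own pattern of blue and red.

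With RA in siLacZ cells the beta cluster stood higher and the alpha cluster showed no common direction. The median log2 difference was 0.81 over the 17 beta members, 0.41 over the 23 gamma members and -0.06 over the 13 alpha members, against -0.05 over all 18732 genes. The difference was above 0 for 16 of 17 beta, 17 of 23 gamma and 6 of 13 alpha members, and for 44.7% of all genes. limma, with Benjamini-Hochberg adjustment over all genes and a threshold of 0.05, passed 3 of 53 members, against 3.91% of all genes: PCDHB3 and PCDHB5 rose and PCDHA5 fell. At an unadjusted p under 0.05 there were 15 of 53 members, 9 of them beta, against 16.4% of all genes. Fewer cells of a type and less RNA per cell cannot be told apart in these bulk samples.

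PCDHB3, an adhesion receptor of the beta family, read 4.88 and 4.99 on the DMSO siLacZ arrays, 6.43 with RA siLacZ, 5.13 and 5.14 with DMSO siRNF20 and 5.25 and 5.25 with RA siRNF20. The RA siLacZ array was above each of the other 6. The log2 difference with RA in siLacZ cells was 1.49 (SE 0.29, adjusted p = 0.023), a fold of 2.81, and 4 of its 5 rows were above 0. PCDHB5, a neighbour in the same cluster, read 8.85 and 8.70 with DMSO siLacZ, 9.69 with RA siLacZ, 8.74 and 8.81 with DMSO siRNF20 and 9.24 and 9.21 with RA siRNF20. Every RA array stood above every DMSO array, with the RA siLacZ array highest. Its log2 difference in siLacZ cells was 0.92 (SE 0.18, adjusted p = 0.022), a fold of 1.89, and all 10 of its rows were above 0, from 0.25 to 1.18. The calls of both rested on each control array: leaving out GF117 DMSO siLacZ gave an adjusted p of 0.102 for PCDHB3 and 0.065 for PCDHB5, and leaving out GF120 DMSO siLacZ gave 0.073 and 0.098. PCDHB3 stood at 0.55 (adjusted p = 0.291) with a stricter filter on dim rows and at 0.81 (adjusted p = 0.060) with the mean over rows, and PCDHB5 missed the threshold without the intensity trend (adjusted p = 0.097).

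**Figure D2:**
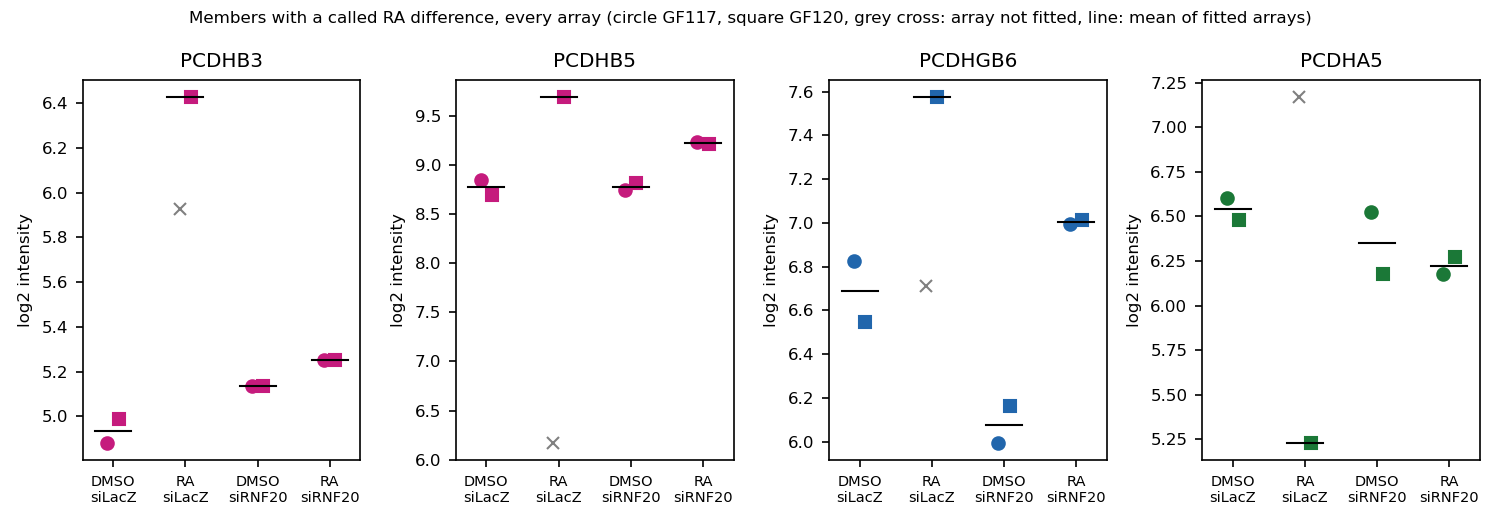
Log2 intensity of the 4 members that passed in an RA comparison, on every array, by group; circles are GF117, squares GF120, grey crosses the GF117 RA siLacZ array that was not fitted, and lines the means of fitted arrays. PCDHB3 at 6.43 and PCDHB5 at 9.69 on the RA siLacZ array stand above all other fitted arrays, PCDHA5 at 5.23 stands below them, and PCDHGB6 is higher with RA in both siRNA groups.

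Other beta members had differences of like size that missed the threshold in the fit of the 4 group means. PCDHB13 had the highest difference of the cluster, 1.52 (SE 0.55, adjusted p = 0.201), from 5.15 and 4.61 with DMSO siLacZ to 6.40 with RA siLacZ. All 4 of its rows were above 0, and its siRNF20 arrays spread from 4.82 to 6.17. PCDHB8, which rests on 1 row, differed by 1.37 (SE 0.37, adjusted p = 0.082), from 4.94 and 4.60 to 6.14. PCDHB16 read 7.70 and 7.27 with DMSO siLacZ and 8.44 with RA siLacZ, a difference of 0.96 (SE 0.25, adjusted p = 0.074), and all 7 of its rows were above 0. PCDHB14, one of the beta genes without the shared promoter word, differed by 1.34 (SE 0.58, adjusted p = 0.295). Of the 3 PCDHB14 rows 2 were above 0, with a median row of 0.56 and a lowest row of -0.25. At the low end stood PCDHB7 (-0.08) and the pseudogenes PCDHB18P (0.18) and PCDHB19P (0.32). The RA siLacZ array lay above both DMSO siLacZ arrays for 13 of 17 beta members and below both for 0 of 17, against 32.1% and 41.9% of all genes. Among single rows 82 of 95 beta rows were above 0, against 51 of 69 gamma and 33 of 51 alpha rows.

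Gamma members were spread wider. PCDHGA12 had the highest difference, 1.86 (SE 0.83, adjusted p = 0.306), but it rests on 1 row that read 4.26 and 1.72 on the DMSO siLacZ arrays and 4.85 with RA siLacZ. The reading of 1.72 on the GF120 DMSO siLacZ array lay under the cut for dim rows (3.97), and the other 6 arrays lay between 4.26 and 4.85. PCDHGA1 differed by 1.21 (SE 0.46, adjusted p = 0.228) and PCDHGA10 by 1.11 (SE 0.34, adjusted p = 0.124), the latter from 5.57 and 5.02 to 6.40. PCDHGA1 read 3.40 on the GF117 DMSO siLacZ array, which is also under the cut of 3.97. The lowest were PCDHGA9 (-0.50), PCDHGA7 (-0.49) and the C-type PCDHGC3 (-0.46), and none of the 3 passed. The RA siLacZ array lay above both controls for 11 and below both for 3 of 23 gamma members, against the same 32.1% and 41.9% of all genes.

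Alpha members went both ways. PCDHA5 read 6.60 and 6.48 with DMSO siLacZ, 5.23 with RA siLacZ, 6.52 and 6.18 with DMSO siRNF20 and 6.18 and 6.27 with RA siRNF20. Only the RA siLacZ array was low. The log2 difference was -1.31 (SE 0.27, adjusted p = 0.026), on 1 row, and PCDHA5 no longer passed when either DMSO siLacZ array was left out (adjusted p = 0.135 for GF117 and 0.088 for GF120). With dim rows kept, the difference of PCDHA5 turned to 0.53, and with the stricter filter its adjusted p was 0.056. PCDHA3 differed by -1.14 (SE 0.34, adjusted p = 0.115), from 5.78 and 5.27 to 4.38. PCDHA8 differed by 1.29 (SE 0.42, adjusted p = 0.145), from 4.49 and 4.28 to 5.67, and PCDHA12 and PCDHA6 by 0.75 and 0.74. PCDHA1 stood at -0.26, though 3 of its 4 rows were above 0. Single rows gave smaller differences, with row medians of 0.80 for PCDHA8, 0.10 for PCDHA12 and 0.20 for PCDHA6. The rows of PCDHA12 ran from -2.17 to 1.32. Those of PCDHA3 ran from -1.95 to -0.18, with a median row of -0.28. Under alternative settings PCDHA8 went as low as -0.36 and PCDHA6 as low as -0.06.

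The number of the array moved with these values. GF120 arrays read lower than GF117 arrays of the same group by a median of -0.38 over alpha members (11 of 13 lower), -0.24 over beta members (14 of 17) and -0.12 over gamma members, against -0.07 over all genes, and the lone RA siLacZ array is a GF120 array. Within GF120 alone, 1 array against 1, the median difference with RA in siLacZ cells was 0.95 for beta, 0.66 for gamma and 0.27 for alpha members, against -0.04 for all genes. With all 8 arrays the beta median was 0.28 against -0.49 over all genes, and PCDHB5 stood at -0.84.

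**Figure D3:**
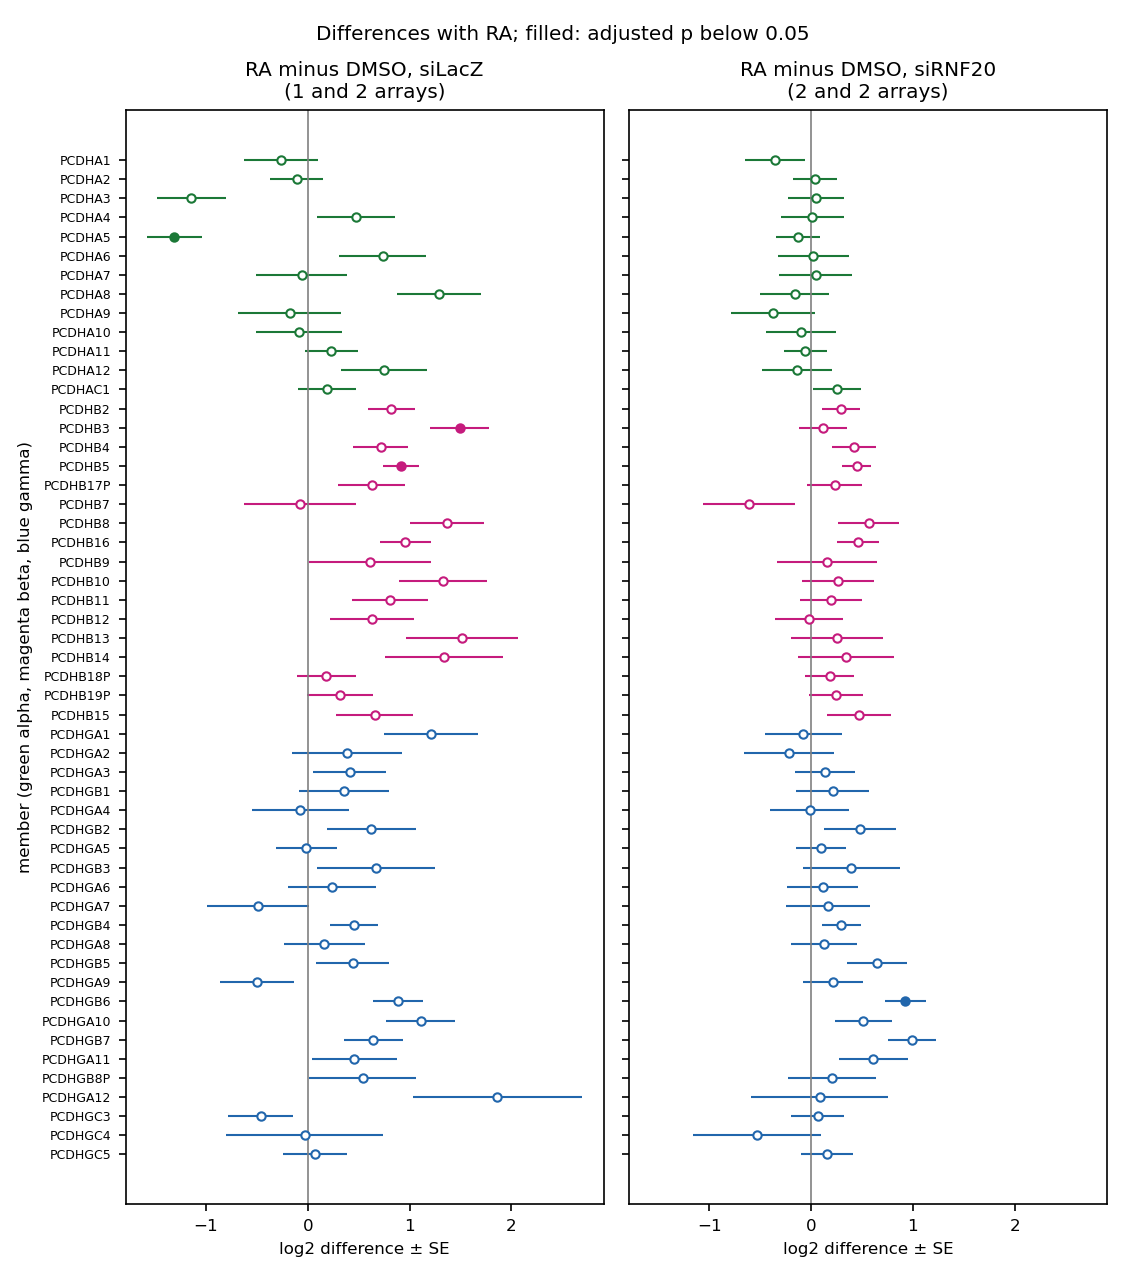
Log2 differences between RA and DMSO (points, with lines of 1 SE) for every measured member in siLacZ cells (left, 1 against 2 arrays) and siRNF20 cells (right, 2 against 2 arrays), coloured by cluster; filled points passed limma at an adjusted p below 0.05. On the left 16 of 17 beta members lie above 0, with PCDHB3, PCDHB5 and PCDHA5 filled, and on the right most members lie closer to 0 and PCDHGB6 is filled.

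With RA in siRNF20 cells, a comparison of 2 arrays with 2 that does not use the RA siLacZ group, the beta and gamma clusters stood slightly higher. The median log2 difference was 0.25 over beta members (15 of 17 above 0), 0.16 over gamma members (19 of 23) and -0.06 over alpha members (6 of 13), against -0.03 over all genes, of which 46.4% were above 0. Of 53 members 1 passed, PCDHGB6, which rose, against 3.92% of all genes. At an unadjusted p under 0.05 there were 4 members (PCDHGB6, PCDHGB7, PCDHB5 and PCDHB16), against 15.3% of all genes. The beta median was 0.29 within GF117 (14 of 17 above 0) and 0.40 within GF120 (15 of 17).

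PCDHGB6, a gamma receptor of the B subfamily, read 5.99 and 6.16 with DMSO siRNF20 and 7.0 and 7.01 with RA siRNF20, and 6.83, 6.55 and 7.57 on the DMSO and RA siLacZ arrays. Both RA siRNF20 arrays were above both DMSO siRNF20 arrays. The log2 difference was 0.93 (SE 0.20, adjusted p = 0.036), a fold of 1.90, and all 3 of its rows were above 0. In siLacZ cells it differed by 0.89 (SE 0.25, adjusted p = 0.093). The call did not survive leaving out any of the other 6 arrays: the adjusted p was 0.279 and 0.130 without the GF117 and GF120 DMSO siRNF20 arrays, 0.088 and 0.102 without the RA siRNF20 arrays, and 0.057 and 0.056 without the DMSO siLacZ arrays. It was also above the threshold with the stricter filter (0.0502), without the trend (0.060) and with the siRNF20 arrays fitted alone (0.063).

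PCDHGB7, which lies near PCDHGB6 in the cluster, read 5.89 and 5.96 with DMSO siRNF20 and 6.81 and 7.01 with RA siRNF20. Its difference of 0.99 (SE 0.23) was the highest of all members and just missed the threshold (adjusted p = 0.051). PCDHGB5 differed by 0.65 (SE 0.30, adjusted p = 0.342), PCDHGA1 by -0.08, PCDHGA2 by -0.22 and PCDHGC4 by -0.53. In the beta cluster PCDHB8 (0.56), PCDHB15 (0.47) and PCDHB16 (0.46) were highest, while PCDHB12 (-0.02) and PCDHB7 (-0.61) were lowest, with PCDHB3 at 0.12 (SE 0.24) and PCDHB5 at 0.45 (SE 0.14, adjusted p = 0.151). PCDHB7 differed by -1.70 within GF117 and by 0.47 within GF120, and 2 of its 3 rows were above 0. Among alpha members PCDHAC1 (0.25), PCDHA3 (0.05) and PCDHA7 (0.04) were highest, and PCDHA9 (-0.38), PCDHA1 (-0.36) and PCDHA8 (-0.16) lowest. Both RA arrays lay above both DMSO arrays for 8 of 17 beta, 7 of 23 gamma and 0 of 13 alpha members, against 18.1% of all genes.

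With siRNF20 in DMSO the cluster medians lay near 0. The median log2 difference was 0.05 over beta, -0.08 over gamma and -0.03 over alpha members, against -0.01 over all genes. limma passed 0 of 53 members and 0% of all genes. At an unadjusted p under 0.05 there were 5 members, all gamma, against 2.77% of all genes. The arrays of the groups did not overlap for 6 of 53 members with siRNF20 higher and for 5 with siRNF20 lower, against 14.6% and 15.6% of all genes.

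The 5 gamma members split in both directions. PCDHGA11 read 6.78 and 6.37 with DMSO siLacZ and 5.88 and 5.53 with DMSO siRNF20, a difference of -0.86 (SE 0.34). PCDHGB7 read 6.99 and 6.42 against 5.89 and 5.96, a difference of -0.78 (SE 0.23), and PCDHGB6 differed by -0.61 (SE 0.20). Both siRNF20 arrays lay below both siLacZ arrays for each of these 3, which lie close together in the cluster, with PCDHGA10 (-0.08) between PCDHGB6 and PCDHGB7. Of single rows, 0 of 6 for PCDHGB7, 1 of 3 for PCDHGB6 and 3 of 7 for PCDHGA11 were above 0. The median row of PCDHGA11 stood at -0.18. PCDHGA12 (1.58, SE 0.68) and PCDHGA1 (1.23, SE 0.38) were higher, the latter from 3.40 and 4.33 to 4.84 and 5.35. Each had a control reading under the cut for dim rows (3.97). These were 1.72 for PCDHGA12 on the GF120 and 3.40 for PCDHGA1 on the GF117 DMSO siLacZ array. PCDHGA12, on 1 row, differed by 0.48 within GF117 and by 2.69 within GF120. PCDHGB3 differed by 0.57. Every member had an adjusted p of 1.00 here. The DMSO siRNF20 arrays are also the controls of the RA comparison in which PCDHGB6 passed, so that the values of the 2 comparisons are not independent.

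In the other clusters the differences with siRNF20 in DMSO were smaller. PCDHA8 (0.61), PCDHA10 (0.42) and PCDHA12 (0.33) were the highest and PCDHA3 (-0.33), PCDHA9 (-0.25) and PCDHA5 (-0.19) the lowest alpha members. Of the 3 PCDHA8 rows only 1 was above 0, and the median row stood at -0.14. PCDHB10 (0.38), PCDHB13 (0.38) and PCDHB12 (0.27) were the highest and PCDHB8 (-0.37), PCDHB9 (-0.26) and PCDHB11 (-0.14) the lowest beta members. PCDHB5 read 8.85 and 8.70 with DMSO siLacZ against 8.74 and 8.81 with DMSO siRNF20, so that the groups overlapped.

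With siRNF20 in RA, 2 arrays against the lone RA siLacZ array, the beta cluster stood lower. The median log2 difference was -0.48 over beta members (16 of 17 below 0), -0.20 over gamma members and 0.03 over alpha members, against -0.01 over all genes, of which 50.9% were below 0. Both siRNF20 arrays lay below the siLacZ array for 12 of 17 beta members, against 33.9% of all genes. Among single beta rows 21 of 95 were above 0. limma passed 0 of 53 members, against 0.0107% of all genes, and at an unadjusted p under 0.05 there were 8 members, against 7.93%. This comparison, RA in siLacZ cells and the difference of the responses all use the single GF120 RA siLacZ array, so that a high reading on it moves all 3.

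PCDHB3 differed by -1.17 (SE 0.29, adjusted p = 0.282), the lowest adjusted p of the members, with 5.25 on both RA siRNF20 arrays against 6.43. PCDHB8 differed by -1.17 (SE 0.37, adjusted p = 0.454), with 5.15 and 4.78 against 6.14, and PCDHB14 by -0.95 (SE 0.58). At the other end stood PCDHB15 (0.05), PCDHB19P (-0.01) and PCDHB18P (-0.13). PCDHB5 differed by -0.46 (SE 0.18) and PCDHB16 by -0.62 (SE 0.25). The rows of PCDHB3 were mixed, with 2 of 5 above 0 and a median row of -0.07, while the 1 row of PCDHB8 was below 0. Gamma members ranged from PCDHGA11 (-0.71), PCDHGA10 (-0.67) and PCDHGB6 (-0.57) to PCDHGC3 (0.66), PCDHGA7 (0.85) and PCDHGA9 (0.94). Alpha members ranged from PCDHA6 (-0.88), PCDHA8 (-0.84) and PCDHA12 (-0.56) to PCDHA10 (0.40), PCDHA3 (0.86) and PCDHA5 (0.99, SE 0.27, adjusted p = 0.336). Within GF120 alone the beta median was -0.56, with 4 of 17 above 0, against -0.05 over all genes, and with all 8 arrays it was -0.01 against 0.43 over all genes.

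Subtracting the RA response of siLacZ cells from that of siRNF20 cells tests whether the response itself differed. Its median was -0.52 over beta members (17 of 17 below 0), -0.12 over gamma members and -0.10 over alpha members, against 0.01 over all genes, of which 49.4% were below 0. Single beta rows were less uniform, with 25 of 95 above 0 and a median row of -0.26. The row medians of PCDHB7 (0.12), PCDHB11 (0.07) and PCDHB19P (0.23) were above 0. No member passed, as 0% of all genes did, and the lowest adjusted p of a member was 0.936 by limma. At an unadjusted p under 0.05 there were 4 members, against 3.93% of all genes: PCDHB3 (-1.37, SE 0.38), PCDHA8 (-1.45, SE 0.54), PCDHA3 (1.19, SE 0.44) and PCDHA5 (1.18, SE 0.34). Of single rows, 2 of 3 for PCDHA8 and 2 of 5 for PCDHB3 were above 0, with row medians of 0.31 and -0.21. The rows of PCDHA8 ran from -1.01 to 0.91, so that none was as low as -1.45. All 3 PCDHA3 rows and the 1 PCDHA5 row were above 0, with a row median of 0.51 for PCDHA3. PCDHB5 stood at -0.47 (SE 0.23) and PCDHGB6 at 0.04 (SE 0.32). Within GF120 alone the beta median was -0.59, with 1 of 17 above 0, against -0.04 over all genes. With all 8 arrays it was -0.05 against 0.46 over all genes.

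**Figure D4:**
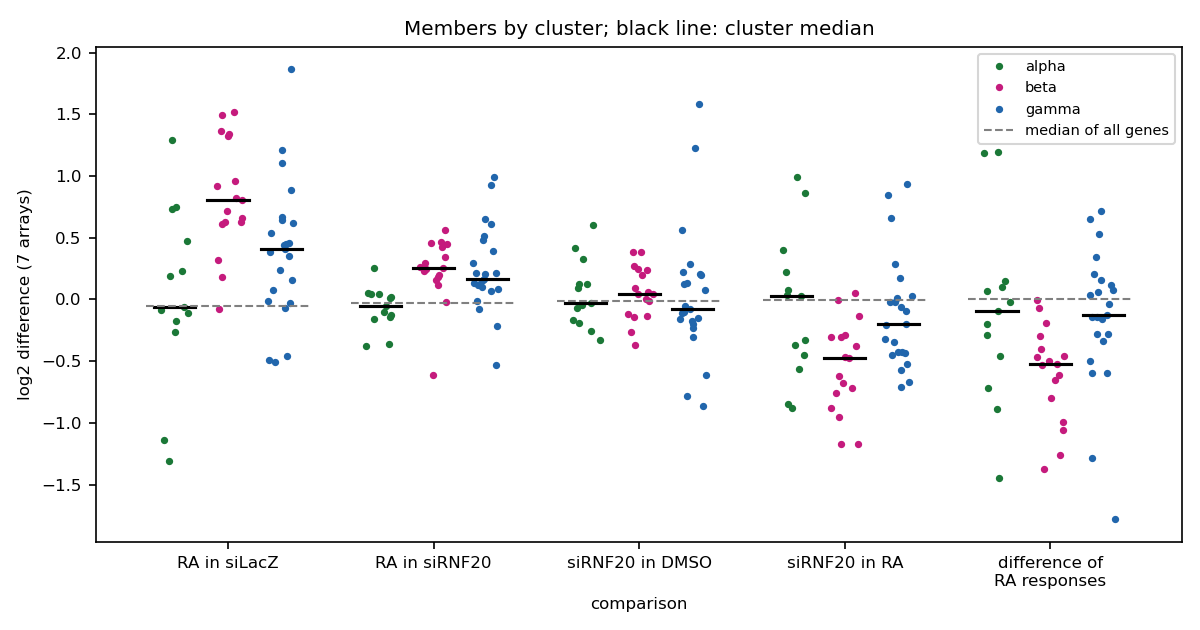
Log2 differences of the 53 measured members in the 5 comparisons, from 7 arrays, with 1 point per member coloured by cluster, black lines for cluster medians and dashed lines for the median of all genes. The beta median is 0.81 with RA in siLacZ cells, 0.25 with RA in siRNF20 cells and -0.52 for the difference of the responses, while the alpha medians stay between -0.10 and 0.03.

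The constant exons were read apart from the members. In all, 45 rows listed several members and 39 of them were bright enough to keep. Of these 9 listed 15 alpha symbols together, PCDHA13 included, as rows of the constant exons would. They read a median of 6.18 and 5.81 with DMSO siLacZ, 5.81 with RA siLacZ, 5.61 and 5.61 with DMSO siRNF20 and 5.94 and 5.54 with RA siRNF20. The lowest reading was that of the GF120 RA siRNF20 array, and the other RA arrays lay among the DMSO arrays. The log2 difference with RA was -0.19 in siLacZ cells (SE 0.30, adjusted p = 0.842) and 0.13 in siRNF20 cells (SE 0.25, adjusted p = 0.887), and that of siRNF20 in DMSO was -0.38 (SE 0.25, adjusted p = 1.00). No row listed all gamma symbols, so that no rows were taken as the gamma constant exons. Rows shared by PCDHGA12 with PCDHGC3, PCDHGC4 or PCDHGC5 differed with RA by 0.34, -0.42 and -0.07 in siLacZ cells. In siRNF20 cells these differed by -0.09, -0.12 and 0.36. Which exons they read was not tested. Rows shared by PCDHAC1 with PCDHA10, PCDHA13 or PCDHAC2 differed with RA by -0.07, 0.20 and 0.25 in siLacZ cells. In siRNF20 cells those differed by -0.20, -0.10 and -0.53. The row that PCDHB16 and PCDHB13 share differed with RA by 0.65 in siLacZ and 0.40 in siRNF20 cells, and the 3 rows shared by PCDHB9 and PCDHB10 by 0.82 and -0.15.

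The C-type members showed no difference that passed. PCDHAC1 read 7.24 and 6.86 with DMSO siLacZ, 7.24 with RA siLacZ, 7.22 and 6.82 with DMSO siRNF20 and 7.45 and 7.10 with RA siRNF20, and differed with RA by 0.19 (SE 0.29) and 0.25 (SE 0.23). PCDHGC3, which is known to bind the WNT scaffold AXIN1, read 6.03 and 6.63 with DMSO siLacZ, 5.87 with RA siLacZ, 6.37 and 6.55 with DMSO siRNF20 and 6.32 and 6.72 with RA siRNF20. PCDHGC4, needed for the survival of interneurons in mice, read 5.09 and 2.99 on the DMSO siLacZ arrays, a spread wider than its differences of -0.03 and -0.53 with RA. PCDHGC5 differed with RA by 0.07 (SE 0.31) and 0.15 (SE 0.26). None of the 4 passed in any of the 5 comparisons.

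Among 13 non-clustered protocadherins, which lie outside the 3 clusters, 2 rose with RA in siLacZ cells and 4 in siRNF20 cells, and none fell. PCDH7 rose by 1.72 (SE 0.28, adjusted p = 0.0091) and 1.56 (SE 0.23, adjusted p = 0.0046), and PCDH18 by 1.49 (adjusted p = 0.020) and 1.24 (adjusted p = 0.018). PCDH17 (1.20, adjusted p = 0.029) and PCDH19 (1.14, adjusted p = 0.048), the gene of a female-limited epilepsy, passed in siRNF20 cells and had 1.20 and 1.13 in siLacZ cells (adjusted p = 0.066 and 0.102). PCDH11X stood at -1.75 (adjusted p = 0.062) in siLacZ cells. The median of this list was 0.06 and 0.09, and 3.91% and 3.92% of all genes passed with RA in siLacZ and siRNF20 cells.

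Of 25 measured genes for the architecture and silencing of the clusters, 1 passed with RA in each siRNA group and none otherwise. DNMT3B, a DNA methyltransferase that acts on these promoters in early embryos, fell by 1.65 (SE 0.19, adjusted p = 0.0011) in siLacZ and by 1.16 (SE 0.15, adjusted p = 0.0025) in siRNF20 cells. CTCF differed by 0.21 and -0.12, SMCHD1 by 0.08 and -0.07, and the cohesin subunit SMC3 by -0.38 and 0.28, all short of the threshold. Among 17 measured partners of the proteins RET, a receptor kinase that clustered protocadherins bind, fell by 1.55 (SE 0.26, adjusted p = 0.010) and by 1.09 (SE 0.21, adjusted p = 0.020). WASF1, of the WAVE complex that binds their tails, differed by 1.13 (adjusted p = 0.135) and 1.18 (adjusted p = 0.058). Of all genes 3.91% passed with RA in siLacZ and 3.92% in siRNF20 cells, near the 1 of 25 for architecture and silencing. None of the genes in these lists passed with siRNF20 or in the difference of the responses.

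Of 15 genes around the clusters none passed with RA in siLacZ cells, and their median was -0.21. TAF7 and SLC25A2, which lie between the beta and gamma clusters, differed by -0.21 each. HDAC3, a histone deacetylase beyond the gamma cluster, fell in siRNF20 cells by 0.70 (SE 0.15, adjusted p = 0.039) and stood at 0.05 in siLacZ cells. ARAP3 differed by -0.89 and -0.91 without passing. The shares of all genes that passed with RA were 3.91% in siLacZ and 3.92% in siRNF20 cells.

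Markers of other states moved with RA beside the members. Of the 9 embryonal carcinoma markers 4 passed in siLacZ and 5 in siRNF20 cells, all lower. NANOG, a core factor of pluripotency, differed by -3.82 and -2.76, L1TD1 by -2.57 and -2.54 and POU5F1 by -1.83 and -2.46, and these 3 fell in both. SOX2 fell by 0.62 in siLacZ cells, and DPPA4 (-0.71) and TERF1 (-1.48) fell in siRNF20 cells. Other markers did not fall in siRNF20 cells. SOX2 read 10.49 and 10.49 there with DMSO and 10.69 and 10.73 with RA. LIN28A read 11.50 and 11.50 with DMSO siRNF20 and 11.85 and 11.68 with RA siRNF20. For LIN28B and PODXL these groups overlapped. Of all genes 3.91% passed with RA in siLacZ and 3.92% in siRNF20 cells. DCX, a marker of young neurons, rose by 2.55 (adjusted p = 0.00041) in siLacZ and by 1.55 (adjusted p = 0.0017) in siRNF20 cells, while the other 7 neuron markers did not pass. CDH5, an endothelial cadherin, rose by 2.87 and 2.53, and COL1A1 by 1.30 in siLacZ cells, as the single genes of their lists that passed, and 0 of 5 glia markers did. Beside DCX the neuron markers went both ways. ELAVL3 read 5.47 and 5.66 with DMSO siLacZ and 4.99 with RA siLacZ. With siRNF20 it read 5.47 and 5.15 in DMSO and 4.94 and 4.82 in RA. In siRNF20 cells SYT1 went from 7.26 and 6.88 with DMSO to 6.42 and 6.16 with RA. SNAP25 went up there, from 5.12 and 4.71 to 6.13 and 5.38. The median level of the 8 neuron markers was 5.30 to 5.60 on the DMSO arrays and 5.62 to 5.75 on the RA arrays. Their part in the protocadherin values was not tested.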

How the data were processed

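Per the labels, total RNA of NTera2/D1 cells was labelled with biotin for the arrays. The deposited values are linear intensities per array row, made by the authors with a normalization not given in the sources used here; they were taken here as log2 of the deposited intensities with no further scaling. GEO's platform annotation gave a single symbol to 354600 of 1384231 rows, several to 14898 and none to 1014733, and the first were used; 2950 of 19497 symbols were updated through RefSeq's list of genes. Dim rows (mean not above that of the median row) were dropped, and the median of the other rows stands for each of 18732 genes on 7 arrays. limma (version 3.58.1, in R 4.3.3) fitted 4 group means with an intensity trend; its two-sided p-values were adjusted over all genes tested (Benjamini-Hochberg), and genes below 0.05 are called. The script was tested on simulated data. Tables were read with data.table (version 1.17.8), and figures drawn with matplotlib 3.10.9 in Python 3.11.15. Named members are those called, the C-type members and the 3 highest and 3 lowest of each cluster per pairwise comparison; in other lists, those called and up to 2 with the largest difference. Further members and genes given with a value were chosen after their values were seen, as were the promoter words and windows. The members, lists and the choice of 7 arrays were made with earlier results of these data known. Alternatives covered arrays, GF number as a block, filter, summary, offset, normalization and the trend.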

Additional observations from a re-analysis of the deposited data

How the results depend on the processing

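The number of members that passed limma was 3 with RA in siLacZ cells, 1 with RA in siRNF20 cells and 0 in the other 3 comparisons. With all 8 arrays it was 0 throughout, and PCDHB5 stood at -0.84 with RA in siLacZ cells. With the GF117 RA siLacZ array in place of the GF120 one, RA gave 26 and 2, siRNF20 in RA gave 27 and the difference of the responses 24, where 13323, 721, 12835 and 11416 of 18737 genes passed. There, among the members named for each comparison and with a call on either side, PCDHA12 (-2.26), PCDHA5 (0.63), PCDHA6 (-1.39), PCDHB5 (-2.60), PCDHB7 (1.57), PCDHB8 (-1.98), PCDHGA10 (-2.44) and PCDHGA7 (2.33) turned their sign with RA in siLacZ cells. With siRNF20 in RA so did PCDHA12 (2.45), PCDHA5 (-0.94), PCDHA6 (1.30), PCDHB14 (2.35), PCDHB5 (3.05), PCDHB8 (2.18), PCDHGA10 (2.87), PCDHGA11 (3.16) and PCDHGA7 (-1.97), and in the difference of the responses PCDHB5 (3.05); 12 further differences of named members changed sign with no call on either side. Leaving out each array in turn gave 0 to 3 with RA in siLacZ cells and 0 to 1 in siRNF20 cells. Without the GF117 DMSO siLacZ array the 2 that passed in siLacZ cells were PCDHB10 and PCDHGA12, and without either DMSO siLacZ array the 1 in siRNF20 cells was PCDHGB7. With no filter on dim rows 2 members passed in siRNF20 cells and PCDHA5 turned to 0.53 in siLacZ cells. With the stricter filter, which measured 43 members, 1 passed in siLacZ and 0 in siRNF20 cells. Without the intensity trend, and with only the arrays of the groups compared, 0 passed in siRNF20 cells. Apart from the first and second alternatives the beta median ran from 0.59 to 0.95 with RA in siLacZ cells, 0.17 to 0.40 in siRNF20 cells and -0.71 to -0.30 for the difference of the responses, and the gamma median from 0.04 to 0.65 with RA in siLacZ cells. Over these alternatives the alpha median changed sign with RA in siLacZ cells (-0.06 to 0.38), in siRNF20 cells (-0.20 to 0.09) and with siRNF20 in RA (-0.33 to 0.12), as did the gamma median of the difference of the responses (-0.19 to 0.22) and, with siRNF20 in DMSO, the alpha (-0.20 to 0.16), beta (-0.08 to 0.20) and gamma (-0.27 to 0.18) medians. The cause of these changes was not tested. The number of arrays, 7 with 1 in the RA siLacZ group, limits every comparison.

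Arrays of different groups share a GF number whose meaning the labels leave unsaid, and no pairing was assumed. Deviations of same-numbered arrays from their group means correlated at 0.297, 0.301 and 0.364 over all genes. Over the members the values were 0.123, 0.123 and 0.234. With the GF number as a replicate block 15 members passed with RA in siLacZ cells, 3 in siRNF20 cells and 0 in the other comparisons, against 1792 and 1959 of all genes with RA.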
